A study of Homo sapiens with 16 samples.

Results

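The mitochondrial ribosomal protein genes, called MRP genes here, were examined in 3 lists of ChIP-Seq peaks from HEK293T cells, a human embryonic kidney line. They were taken as all protein-coding genes named MRPL or MRPS with a number and an optional letter, which gave 78 genes among 20162, 49 of them MRPL and 29 MRPS. The lists came from wild-type, POLK-/- and DDX23-/- cells, 1 list for each, in untreated cultures with an antibody labelled Polk. POLK encodes DNA polymerase kappa (Pol κ), a translesion polymerase, and DDX23 encodes an RNA helicase of the spliceosome. Each genotype had 2 labelled immunoprecipitates and 1 list, so there was no replicate of any value below and no test between genotypes. The sources used here do not say whether each knockout was 1 clone. The labels name an anti-FLAG gel in the protocol although none of these 3 genotypes carries a tag in its label, so signal of the named antibody and of the gel cannot be told apart.

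The mitochondrial ribosome translates the few mRNAs of the mitochondrial genome, nearly all for membrane subunits of the respiratory chain and the ATP synthase. Its ribosomal RNAs are transcribed inside the organelle, whereas every protein of both subunits is encoded in the nucleus, made in the cytosol and imported. MRPL names were given to proteins of the large subunit, which holds the peptidyl transferase centre, and MRPS names to proteins of the small subunit, which reads the mRNA. Some names do not match the place of the protein: MRPS18A and MRPS30 lie in the large subunit, and MRPS36 is now known as a subunit of the α-ketoglutarate dehydrogenase complex. Many promoters of these genes lack a TATA box and bind factors such as the nuclear respiratory factors, ETS family proteins and YY1.

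The wild-type list held 1468 peaks, the POLK-/- list 2451 and the DDX23-/- list 5945. The weakest peak kept had a -log10 p of 5.28, 4.70 and 4.48 in these lists, and a median of 14, 27 and 33 fragments lay at the summit. The lists therefore differ in length and in fragments at the summit, while library totals are unknown. A gene start was the first base of the gene in GENCODE release 44 placed on GRCh37 (hg19), and a gene was counted when any base of a peak lay within 1 kb of it. A fold is the deposited enrichment of the summit over local background, on a linear scale.

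The peak lists do not check the genotypes. At the start of POLK a peak was listed in wild-type and DDX23-/- cells but not in POLK-/- cells, and at the start of DDX23 a peak was listed in DDX23-/- cells only.

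The DNA just upstream of the starts is shown for 6 of the 7 MRP genes that had a peak in every list, those with the smallest sum of ranks. Each run is at most 200 bases of GRCh37, 5′ to 3′ in the direction of transcription, ends at the base before the start or at the nearest base upstream that no annotated exon covers, and has in capitals the matches to the motifs searched.
MRPS7, chr17:73257429-73257628, plus strand: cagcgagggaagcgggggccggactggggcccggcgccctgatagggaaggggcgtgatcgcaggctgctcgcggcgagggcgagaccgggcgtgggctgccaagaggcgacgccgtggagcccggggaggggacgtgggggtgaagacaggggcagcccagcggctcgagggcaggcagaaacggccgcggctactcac
MRPS33, chr7:140715029-140715228, minus strand: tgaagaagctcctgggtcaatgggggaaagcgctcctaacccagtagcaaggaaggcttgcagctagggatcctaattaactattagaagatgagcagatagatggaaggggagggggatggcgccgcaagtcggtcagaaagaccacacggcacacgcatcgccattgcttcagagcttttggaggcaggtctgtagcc
MRPL55, chr1:228297014-228297213, minus strand: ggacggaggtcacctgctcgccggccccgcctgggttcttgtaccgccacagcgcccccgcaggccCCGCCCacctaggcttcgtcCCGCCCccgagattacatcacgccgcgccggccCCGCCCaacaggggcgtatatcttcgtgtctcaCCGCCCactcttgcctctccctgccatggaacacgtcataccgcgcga
MRPL17, chr11:6704572-6704771, minus strand: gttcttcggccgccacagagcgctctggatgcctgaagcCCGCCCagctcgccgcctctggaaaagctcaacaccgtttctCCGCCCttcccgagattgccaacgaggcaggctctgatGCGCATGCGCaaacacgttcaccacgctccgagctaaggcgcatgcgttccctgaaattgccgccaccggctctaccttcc
MRPS25, chr3:15106847-15107046, minus strand: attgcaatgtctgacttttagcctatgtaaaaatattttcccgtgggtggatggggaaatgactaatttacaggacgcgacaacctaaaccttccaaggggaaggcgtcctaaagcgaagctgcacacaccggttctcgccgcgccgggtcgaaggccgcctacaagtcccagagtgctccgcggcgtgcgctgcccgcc
MRPS12, chr19:39421404-39421583, plus strand: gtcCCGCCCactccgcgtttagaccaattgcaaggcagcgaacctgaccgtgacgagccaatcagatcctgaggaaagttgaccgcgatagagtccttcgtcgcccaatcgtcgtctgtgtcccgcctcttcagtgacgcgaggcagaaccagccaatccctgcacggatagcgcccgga
The DDX23-/- peak covered the whole of the printed run at MRPS7, MRPL55, MRPL17 and MRPS12, and reached into it at MRPS33 and MRPS25. The run of MRPS7 stops 127 bases before the start. The capitals mark 1 match to the NRF1 consensus, which begins 81 bases before the start of MRPL17, and 7 matches to the SP family motif GGGCGG on the reverse strand, 4 at MRPL55, 2 at MRPL17 and 1 at MRPS12. The runs of MRPS7, MRPS33 and MRPS25 held none of the motifs, so the 6 printed runs did not share one of them. Among these genes, only the run of MRPL55 contained the summits. In the 300 bp around its summits, MRPS7 had an SP match and MRPS33 an NRF1 match in each list, and MRPS25 had no match. Sharing of a motif near the summits thus cannot be read from the printed runs.

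In wild-type cells 10 of the 78 MRP genes had a peak, or 12.8% (exact Clopper-Pearson 95% interval 6.32 to 22.3), where 5.61% of all protein-coding genes had one. In POLK-/- cells 19 MRP genes had a peak, or 24.4% (15.3 to 35.4), against 10.1% of all. In DDX23-/- cells 40 had a peak, or 51.3% (39.7 to 62.8), against 24.9% of all. The share of MRP genes was thus higher than that of all protein-coding genes in each list, and higher in the longer lists. The intervals cover only the number of genes counted.

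**Figure D1:**
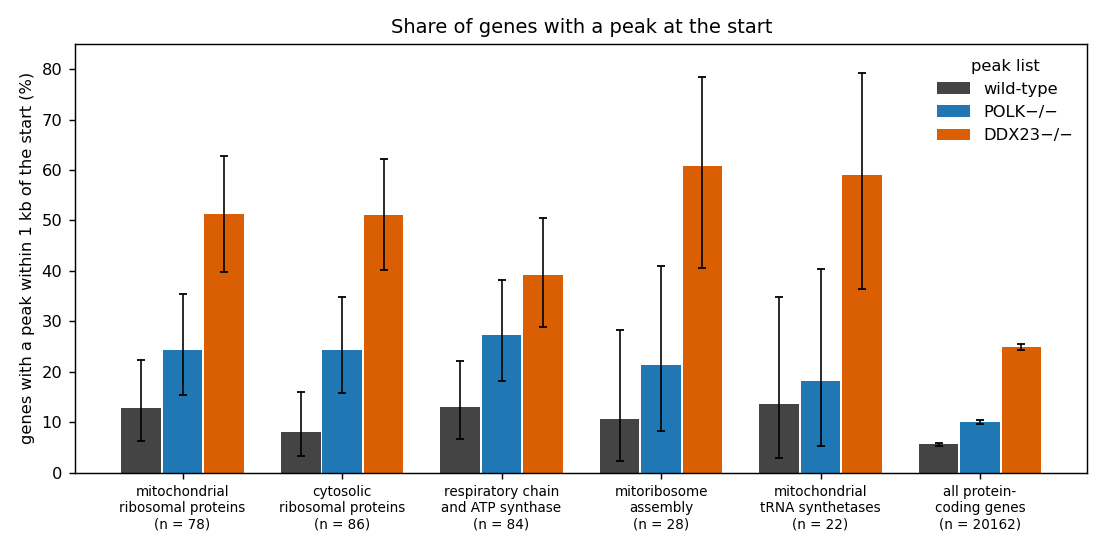
Share of genes with a peak within 1 kb of the start, in percent, for MRP genes, 4 other gene lists and all protein-coding genes. Bars are the 3 peak lists and error bars exact 95% intervals over genes, with n the number of genes. MRP genes stand at 12.8%, 24.4% and 51.3%, all protein-coding genes at 5.61%, 10.1% and 24.9%.

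The order of the genotypes depended on the length of the lists. With the 1468 peaks of smallest p kept in each list, 12.8% of MRP genes had a peak in wild-type, 14.1% in POLK-/- and 10.3% in DDX23-/- cells, against 5.61%, 5.80% and 5.73% of all protein-coding genes. At equal length 5 MRP genes, MRPL17, MRPL55, MRPS25, MRPS33 and MRPS7, were in every list, and 15 were in at least 1. At equal length the share no longer grew from wild-type to DDX23-/- cells, while it was higher than that of all genes in each list. These shares rest on 10, 11 and 8 MRP genes, and no intervals were computed for them.

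A peak in all 3 lists was found at 7 genes, MRPL17, MRPL55, MRPL57, MRPS12, MRPS25, MRPS33 and MRPS7, which is 8.97% of MRP genes against 4.29% of all protein-coding genes. In any list 43 MRP genes had a peak, or 55.1%, against 25.4% of all. All 10 MRP genes of the wild-type list were also in the DDX23-/- list, as were 97.4% of all protein-coding genes of that list, and 7 of them (70%) in the POLK-/- list, against 76.7%. Of the 19 in the POLK-/- list, 16 or 84.2% were in the DDX23-/- list, against 95.9% for all protein-coding genes. The wild-type and DDX23-/- lists alone shared MRPL14, MRPL18 and MRPS16, or 3.85% of MRP genes against 1.18% of all. The knockout lists alone shared MRPL12, MRPL22, MRPL36, MRPL49, MRPS10, MRPS18B, MRPS18C, MRPS21 and MRPS9, or 11.5% against 5.35%. A further 21 genes, 26.9% against 14.1%, were in the DDX23-/- list only. They were MRPL9, MRPL15, MRPL16, MRPL19, MRPL20, MRPL21, MRPL24, MRPL27, MRPL30, MRPL32, MRPL38, MRPL40, MRPL41, MRPL50, MRPL53, MRPL58, MRPS14, MRPS15, MRPS17, MRPS23 and MRPS36. MRPL58 among them encodes a peptidyl-tRNA hydrolase built into the large subunit.

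The POLK-/- list alone held 3 genes, MRPL1, MRPL46 and MRPS11, or 3.85% of MRP genes against 0.402% of all protein-coding genes. MRPL1, a protein of the mobile stalk by the tRNA exit site, had a peak of fold 7.45 at rank 1089 of the POLK-/- list. MRPL46 and MRPS11 start 63 bp apart on opposite strands, and a single peak of fold 6.05 at rank 1944 served both, so the 19 genes rest on 18 peaks. So 2 peaks account for these 3 genes, both in cells that lack POLK by label.

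No peak lay within 1 kb of the gene start of 35 MRP genes in any list, 22 with MRPL and 13 with MRPS names. They were MRPL2, MRPL3, MRPL4, MRPL10, MRPL11, MRPL13, MRPL23, MRPL28, MRPL33, MRPL34, MRPL35, MRPL37, MRPL39, MRPL42, MRPL43, MRPL44, MRPL45, MRPL47, MRPL48, MRPL51, MRPL52, MRPL54, MRPS2, MRPS5, MRPS6, MRPS18A, MRPS22, MRPS24, MRPS26, MRPS27, MRPS28, MRPS30, MRPS31, MRPS34 and MRPS35. For 30 of the 35 no DDX23-/- peak lay within 10 kb of the gene start either. The 35 are not all without a peak at another start. MRPL37 had a peak in each list at its canonical start, 16126 bp downstream. MRPS2 and MRPS27 had a DDX23-/- peak at theirs. By name, MRPL genes had a peak in 10.2%, 18.4% and 51.0% of 49 genes (wild-type first, then POLK-/-, then DDX23-/-), and MRPS genes in 17.2%, 34.5% and 51.7% of 29. The exact intervals of the MRPL and MRPS shares overlapped in every list (3.40 to 22.2 and 5.85 to 35.8 in wild-type, 8.76 to 32.0 and 17.9 to 54.3 in POLK-/-, 36.3 to 65.6 and 32.5 to 70.6 in DDX23-/- cells).

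Among the small-subunit genes in every list, MRPS7 and MRPS12 encode proteins with bacterial counterparts and MRPS25 and MRPS33 proteins without one. MRPS7, whose protein sits in the head of the subunit, had folds of 7.10 in wild-type, 10.6 in POLK-/- and 23.2 in DDX23-/- cells. These came from 19, 85 and 104 fragments at the summit. The MRPS7 peak ranked 664, 362 and 410 in its lists and was the MRP peak of smallest p in both knockout lists. MRPS33 had folds of 11.1, 10.1 and 13.3 from 24, 44 and 74 fragments, and was the MRP peak of smallest p in the wild-type list, at rank 368. By fold both genes were highest in DDX23-/- cells. By fragments over background, without the 1 that the fold adds to both terms, MRPS33 stood at 19.3, 14.0 and 17.8, highest in wild-type cells, with intervals that overlapped.

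MRPS25 had folds of 6.33, 8.37 and 12.5 from 13, 34 and 47 fragments, in the same order of lists. MRPS12, which encodes a protein of the decoding centre, had folds of 8.59, 6.24 and 9.47 from 18, 41 and 41 fragments. MRPS12 and MRPS33 were thus lowest in POLK-/- cells, and MRPS7 and MRPS25 in wild-type cells. In each list the nearest annotated start to the MRPS12 summit was that of SARS2, the mitochondrial seryl-tRNA synthetase gene on the opposite strand, at 18, 5 and 27 bp. At this shared promoter the peak cannot be assigned to either gene.

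Among the large-subunit genes in every list, MRPL17 encodes a protein with a bacterial counterpart, and MRPL55 and MRPL57 encode proteins of the mitochondrial ribosome without one. MRPL55 had folds of 5.88, 10.4 and 14.7 from 12, 40 and 95 fragments. MRPL17 had folds of 4.97, 9.25 and 16.6 from 10, 43 and 63 fragments, and its wild-type peak, at rank 1358 of 1468, had a q-value above 1e-05. MRPL57 had folds of 7.47, 6.71 and 12.3 from 11, 17 and 41 fragments. All 3 were highest in the DDX23-/- list, and the wild-type values rest on 10 to 12 fragments each.

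Outside this group, 3 genes were among the 5 MRP peaks of smallest p in a list. MRPL18, whose protein belongs to the central protuberance, had folds of 8.01 in wild-type and 8.37 in DDX23-/- cells, with summits nearer to the start of TCP1, a chaperonin subunit gene on the other strand. Its fragments over background were 19.3 and 11.1, lower in DDX23-/- cells, with overlapping intervals. MRPS10, a small-subunit protein gene with a bacterial counterpart, had folds of 7.80 in POLK-/- and 13.3 in DDX23-/- cells. MRPL36, the gene of a small protein of the large subunit, had folds of 5.96 and 15.7 in the same lists. The canonical transcript of MRPL36 starts 1529 bp downstream of the gene start, and with canonical starts the gene was not counted.

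**Figure D2:**
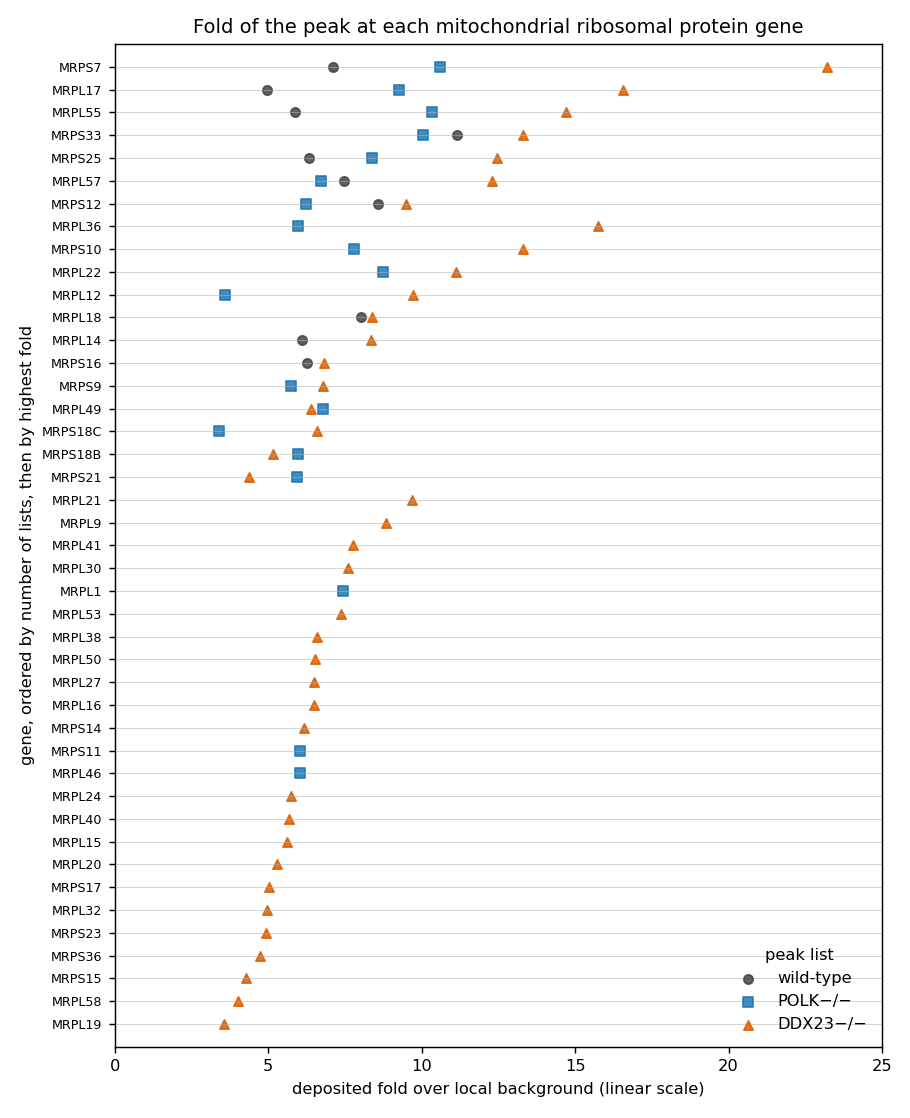
Deposited fold over local background, on a linear axis, of the peak at each of the 43 MRP genes with a peak in any list, with symbols for the 3 lists and genes ordered by number of lists and then by highest fold. Values run from 3.40 to 23.2, and the 7 genes at the top have a symbol for each list.

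Peak strength at MRP genes was near that at other genes. The median fold of MRP peaks was 6.71 in wild-type cells, with an order-statistic 95% interval of 5.88 to 8.59. It was 6.71 (5.96 to 8.73) in POLK-/- and 6.70 (6.17 to 8.37) in DDX23-/- cells. Over all protein-coding genes with a peak it was 7.23, 6.95 and 7.38, inside each of these intervals. Ranked by p within a list, the median MRP peak stood at 63.8%, 54.3% and 58.5% of the list from the top, against 57.9%, 52.1% and 49.9% for all genes. No MRP peak was in the top 10% of the wild-type or POLK-/- list, and 2, at MRPS7 and MRPL55, were in the top 10% of the DDX23-/- list. Of all protein-coding genes with a peak, 2.83%, 3.85% and 6.78% were there, so these counts were near the background. The top 50% of each list held 3 of 10, 9 of 19 and 18 of 40 MRP genes, against 41.2%, 46.4% and 50.6% of all.

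Within the DDX23-/- list, strength differed with presence in the other lists. The 7 MRP genes in every list had DDX23-/- folds of 9.47 to 23.2 (median 13.3), and the 21 in the DDX23-/- list only had 3.55 to 9.67 (median 5.76). The 9 shared with the POLK-/- list alone lay between, with a median of 6.80 and a range of 4.38 to 15.7, and the 3 shared with wild-type alone had a median of 8.36. Over all protein-coding genes the medians of the first 2 groups were 14.5 and 6.45. For genes shared with the POLK-/- list alone the median was 9.10, above that of the MRP genes, and with wild-type alone 7.95. The genes were sorted by the same lists, so this is a description.

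Summits lay close to the starts. The median position was -11.5 bp in wild-type (order-statistic interval -199 to 84), 41 bp in POLK-/- (-38 to 75) and 9.5 bp in DDX23-/- cells (-60 to 22), where negative values are upstream, against 17, 6.5 and 11 bp for all protein-coding genes. Within 100 bp of the start lay 6 of 10, 14 of 19 and 28 of 40 summits (60%, 73.7% and 70%), against 46.6%, 45.7% and 46.5% for all protein-coding genes with a peak. The summit of MRPS7 was at -78, -38 and -77 bp, that of MRPL17 at 20, 41 and 13 bp, and that of MRPS25 at 36, 41 and 33 bp. Each of these 3 genes thus kept its summit on 1 side of the start. MRPL57 did not, with summits at 27, 87 and -22 bp. MRPS33 had summits at 159, 116 and 149 bp, which is upstream of its canonical transcript, since that begins 276 bp downstream of the gene start. MRPL55 and MRPS12 had summits 102 to 208 bp upstream of their starts. By annotation, 22 of the 40 DDX23-/- summits lay outside the canonical transcript, 13 in an untranslated part of an exon, 3 in an intron and 2 in a coding exon.

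**Figure D3:**
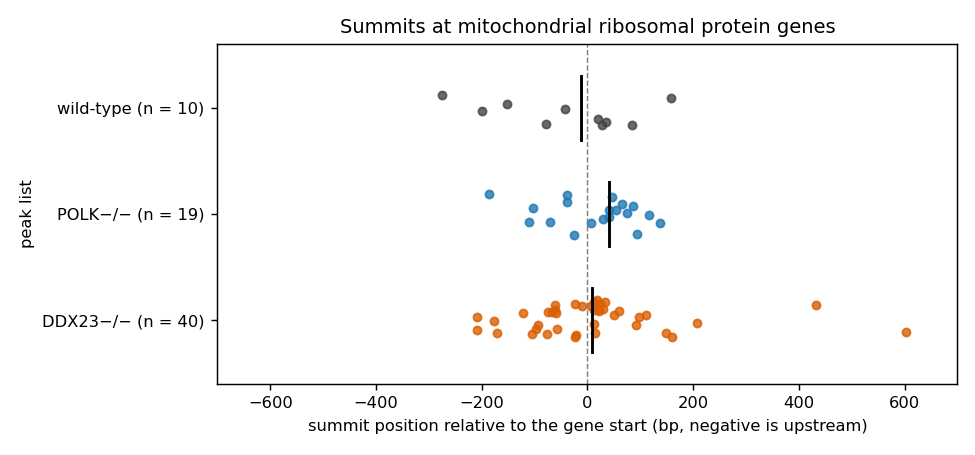
Position of each summit relative to the MRP gene start, in bp with negative values upstream, for the genes with a peak in each list (10 wild-type, 19 POLK-/-, 40 DDX23-/-). Black lines are medians at -11.5, 41 and 9.5 bp, and vertical scatter within a row has no meaning.

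The 1 kb limit itself decided few genes. In the DDX23-/- list the peaks counted from farthest away began 64 bp (MRPL38), 188 bp (MRPS36) and 468 bp (MRPL24) from the start, with folds of 6.59, 4.73 and 5.76. The nearest that were not counted lay 1061 bp (MRPS2), 1354 bp (MRPS27) and 3548 bp (MRPL35) away, with folds of 5.33, 5.83 and 7.37. No MRP gene was lost at a limit of 500 bp in any list. At 5 kb these last 3 genes were added in DDX23-/- cells and none in the other lists. With the start of the canonical transcript, MRPL37 was added in each list, and MRPS2 and MRPS27 in DDX23-/- cells.

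The summit signal was next compared between genotypes for genes with a peak in both lists, as the ratio of their enrichments, where enrichment is fragments at the summit over local background. Exact binomial 95% intervals here cover fragment counts only. Between DDX23-/- and wild-type cells the median ratio over 10 MRP genes was 1.13, against 1.15 over 1088 protein-coding genes. The interval lay above 1 for 3 of them, MRPS7 with 3.28 (2.00 to 5.67), MRPL17 with 3.21 (1.64 to 7.02) and MRPL55 with 1.90 (1.04 to 3.81). It lay below 1 for none. Over all genes compared, 25.6% of intervals lay above 1 and 5.51% below, so 3 of 10 was near the background. MRPL18 had the lowest ratio, 0.573 (0.299 to 1.19), and MRPS33 had 0.922 (0.575 to 1.53). From the deposited folds instead, the median ratio of the 10 genes was 1.51.

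Between POLK-/- and wild-type cells the median ratio over 7 MRP genes was 1.11, against 0.845 over 850 protein-coding genes. It was 0.915 among peaks with a q of 1e-05 or less, a limit that left out MRPL17 alone, so 1 gene decided its direction. MRPS12 had the lowest ratio, 0.508 (0.286 to 0.940), and the other 6 intervals included 1. Over all genes compared, 17.8% of intervals lay below 1 and 11.3% above, so 1 of 7 was near the background. Between DDX23-/- and POLK-/- cells the median over 16 MRP genes was 1.69, against 1.44 over 1919, and values ran from 0.580 to 3.40. The interval lay above 1 for 8 of the 16 (50%), against 41.0% of all genes compared, and below 1 for none, against 6.41%. MRPL36 had 3.20 (2.05 to 5.10), MRPS7 had 2.74 (2.04 to 3.69), MRPL17 had 2.12 (1.42 to 3.20) and MRPS10 had 1.84 (1.23 to 2.79).

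The intervals of these ratios take the local background as known, although it differed between lists and was itself a low estimate. Its own error is left out, so the intervals are too narrow. An interval above or below 1 therefore does not by itself set a ratio apart from 1. At MRPS7 the 85 fragments in POLK-/- and 104 in DDX23-/- cells stood over local backgrounds of 5.00 and 2.00 in the scaled units of each list. At MRPS12 the 18 fragments in wild-type and 41 in POLK-/- cells stood over 1.21 and 4.00. These fragment counts are given before scaling. The ratios of 2.74 at MRPS7 and 0.508 at MRPS12 thus depend strongly on the background. The comparisons share lists, and whether the ratios would hold in a further library was not tested.

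**Figure D4:**
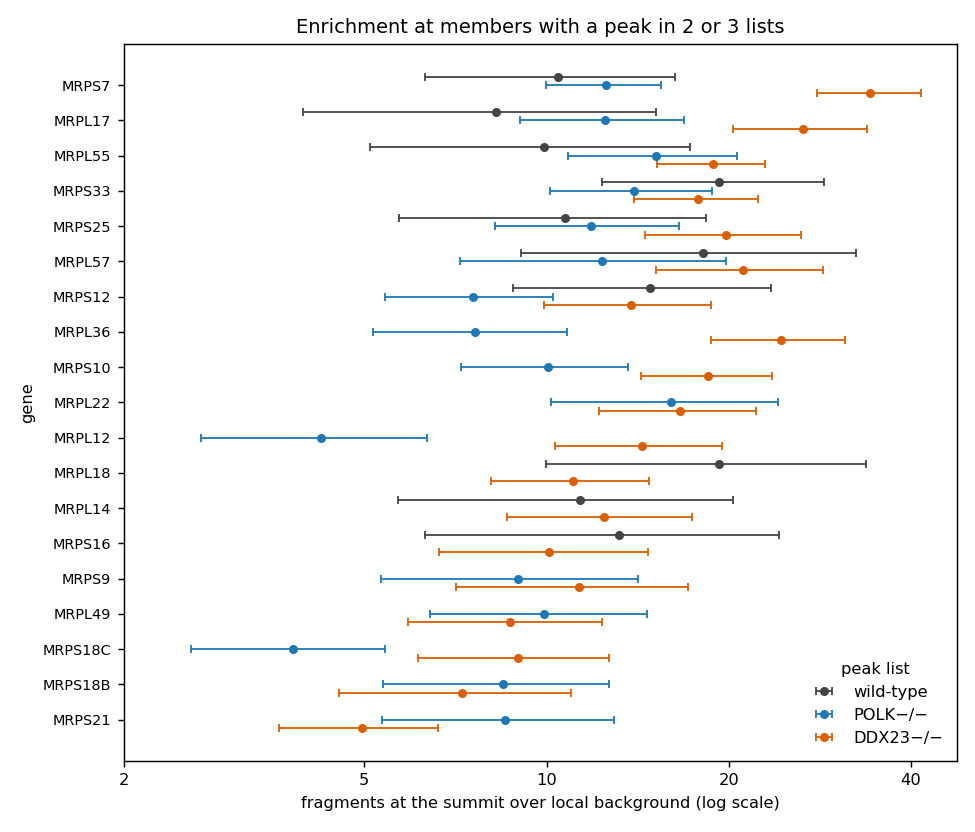
Fragments at the summit, multiplied by the scale of their list, over local background, on a log axis, at the 19 MRP genes with a peak in 2 or 3 lists. Points are lists and bars exact Poisson 95% intervals of the fragment count. The DDX23-/- points of MRPS7 and MRPL17 lie right of the other 2 lists with intervals that do not overlap theirs.

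Starts of MRP genes had a GC content like that of all genes and more CpG. In the 300 bp from 250 before to 50 after the start the median GC was 60.2%, against 60.3% for all genes, and the median number of CpG was 23 against 18. A start was called CpG-rich with at least 50% GC and an observed to expected CpG ratio of at least 0.6, a limit chosen after the data were seen. It held for 68 of 78 MRP genes (87.2%) and for 54.9% of all. Cytosolic ribosomal protein genes met it in 72.1% and respiratory chain and ATP synthase genes in 70.2%. Among CpG-rich starts 13.2%, 26.5% and 55.9% of MRP genes had a peak in wild-type, POLK-/- and DDX23-/- cells, against 8.65%, 15.6% and 38.2% of all protein-coding genes. The exact intervals were 6.23 to 23.6, 16.5 to 38.6 and 43.3 to 67.9, and the wild-type one includes the share of all genes. The difference from all genes was thus smaller among CpG-rich starts, and the part of base composition in the counts was not tested further.

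Another gene began within 1 kb of 36 MRP starts (46.2%, against 31.6% of all genes), and in 17 cases it was a protein-coding gene on the opposite strand, pointing away (21.8% against 8.45%). The same shares were 59.5% and 23.8% for respiratory chain and ATP synthase genes, and 50% and 12.8% for cytosolic ribosomal protein genes. A close neighbour was thus not particular to MRP genes. Of the 17 MRP genes with such a divergent neighbour, 11 or 64.7% had a DDX23-/- peak, against 52.8% of all such genes. Of the 42 MRP genes with no other start within 1 kb, 9.52%, 19.0% and 47.6% had a peak in the 3 lists, against 3.47%, 6.46% and 17.2% of all genes without a neighbour. For 2 of 10, 4 of 19 and 6 of 40 MRP genes with a peak the start nearest to the summit was that of another gene. In POLK-/- cells these include MRPL46, whose summit was nearest to the start of MRPS11, another MRP gene.

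In all, 6 motifs were searched on both strands of the same 300 bp. They were the NRF1 consensus, the letters CCGGAAG for the ETS family, AAGATGGC for YY1, GGGCGG for the SP family, TATAAA for the TATA box and the consensus of the B box of tRNA-type promoters. Matches were allowed to overlap. A window was counted once for each motif. The YY1 motif was in 15 MRP windows (19.2%) against 3.02% of all, and the ETS motif in 26 (33.3%) against 11.8%. The NRF1 motif was in 7 (8.97%) against 6.92%, the SP motif in 45 (57.7%) against 52.1% and the TATA motif in 4 (5.13%) against 10.9%. No MRP window held the B box, which 0.937% of all windows did.

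ETS, YY1 and SP matches were about as frequent in MRP genes with a DDX23-/- peak as in those without. ETS matches were in 13 of 40 windows with a peak and 13 of 38 without, YY1 matches in 8 and 7, and SP matches in 23 and 22. NRF1 matches were in 5 and 2. Over all protein-coding genes each of these 4 was more frequent with a DDX23-/- peak, with 21.0% against 8.76% for ETS and 5.82% against 2.09% for YY1. In the 300 bp around MRP summits the YY1 motif was in 1 of 10 wild-type, 6 of 18 POLK-/- and 8 of 40 DDX23-/- windows, against 8.81%, 9.30% and 7.90% for all protein-coding genes with a peak. The NRF1 consensus was in 4, 3 and 6 of the same windows, against 12.5% and 12.9% in the first pair of lists and 495 of 4139 windows in DDX23-/- cells. There the B box was found in 0 of 10, 0 of 18 and 0 of 40 windows, where 4.57%, 2.92% and 1.67% of the windows of all protein-coding genes held it. A match is only a match of letters.

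**Figure D5:**
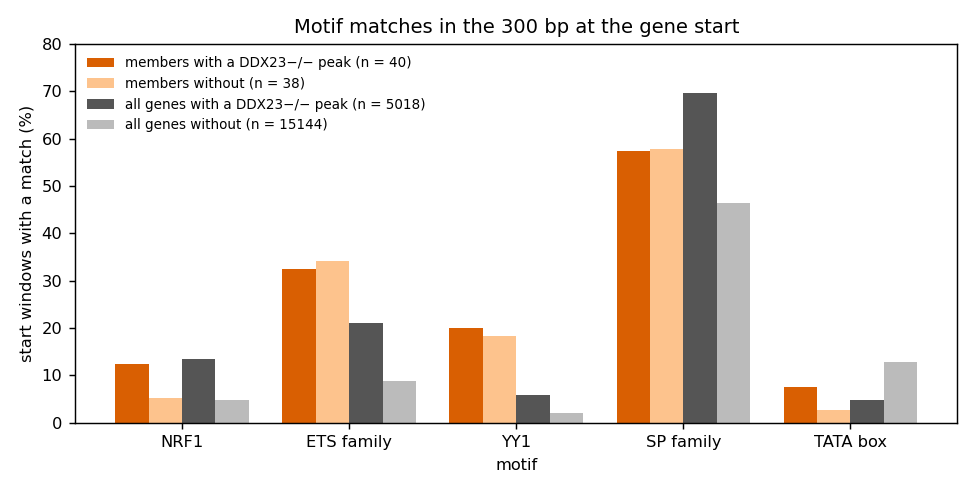
Share of 300 bp start windows with a match to each motif, in percent, for MRP genes and all protein-coding genes with and without a peak in the DDX23-/- list. MRP genes with and without a peak stand at 32.5% and 34.2% for ETS and at 20.0% and 18.4% for YY1.

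Other genes of the same pathways were counted in the same way. Of the 6 mitochondrial ribosome proteins with other names, 1 had a wild-type peak, 1 a POLK-/- peak and 4 a DDX23-/- peak. Among 28 assembly and rRNA modification factors 3, 6 and 17 had one, among 22 mitochondrial aminoacyl-tRNA synthetases 3, 4 and 13, and among 15 translation factors 1, 4 and 7. Of 5 mitochondrial transcription factors 0, 0 and 2 had one. The DDX23-/- shares of the assembly factors and the synthetases, 60.7% and 59.1%, had exact intervals of 40.6 to 78.5 and 36.4 to 79.3, which include the 51.3% of MRP genes.

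The products of mitochondrial translation work with nuclear-encoded subunits of the respiratory chain and ATP synthase, of which 13.1%, 27.4% and 39.3% of 84 genes had a peak. Cytosolic ribosomal protein genes, 86 in number, had a peak in 8.14%, 24.4% and 51.2%. The DDX23-/- share of MRP genes thus lay next to the 51.2% of the cytosolic ribosomal protein genes. The YY1 motif was in 19.2% of MRP windows, 5.81% of cytosolic ribosomal protein windows and 8.33% of respiratory windows. For the ETS motif these shares were 33.3%, 25.6% and 21.4%, against 11.8% of all windows. NRF1 matches were in 25% of respiratory windows and 8.97% of MRP windows.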

How the data were processed

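ChIP-Seq peaks were analysed from HEK293T cells of 3 genotypes, 1 list each, among 16 samples, of which 12 carry the R_ label. The deposited narrowPeak lists hold a fold (a ratio of summit pileup to local background), a -log10 p-value, a -log10 q-value and an integer score for each peak. Per the labels, the authors' processing named Bowtie2, MACS2, bedtools, deepTools and hg19. Versions, threshold, control and pooling are not given in the sources used here. Peak names in the lists of wild-type and DDX23-/- cells carry other numbers than their samples, and the library behind each list is therefore not certain.

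Genes were protein-coding genes of GENCODE release 44 on GRCh37, on 24 chromosomes, and no peak passed a chromosome end. A gene had a peak when any base lay within 1 kb of its start, and the peak of smallest p was used. Whole fragments at the summit were solved from the fold, which adds 1 to both terms, and the Poisson p, for 99.3%, 96.9% and 98.2% of peaks, with the solution nearest to a whole number within 0.08 of it. The scale from fragments to the units of the background was solved for each list, as 1, 0.736 and 0.660. Library totals are unknown. The recovery and the linking of peaks to starts were tested on simulated data. No test of a gene list was made, since each genotype had 1 list, and shares and medians are set beside those of all protein-coding genes. The MRP genes, the other lists and the comparisons were chosen with earlier results of these data known. Genes named with values were those with a peak in every list, the 5 of smallest p per list, those at the 1 kb limit and those with a peak in another list but not the DDX23-/- list, while others are named without values. Alternatives were a limit of 500 bp or 5 kb, summit distance, canonical or any transcript start, equal list lengths, a q of 1e-05, genes without a neighbour and CpG-rich starts (the last added after the data were seen). The nearest peak, ranks by fold, ratios of deposited folds and leaving out the Y chromosome were also run. Python 3.11.15 with numpy 2.4.6, pandas 2.3.3, scipy 1.17.1 and matplotlib 3.10.9 was used.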

Additional observations from a re-analysis of the deposited data

How the results depend on the processing

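No paired analysis was possible because each genotype had 1 peak list, and leaving out a replicate was not possible for the same reason. The 15 main values were recomputed under 72 alternatives, of which 68 stayed within the interval of the main value and 4 moved. Some of the 68 could not move. No MRP gene had more than 1 peak within 1 kb in any list, so the nearest peak was always the one used. No MRP gene lay on the Y chromosome, so leaving it out changed no share of MRP genes. The wild-type list was already the shortest, so equal length changed no wild-type value. With the same number of peaks in each list, the share of MRP genes with a peak was 14.1% in POLK-/- and 10.3% in DDX23-/- cells, and the median fold in DDX23-/- cells was 14.0, against 14.6 over all protein-coding genes. Among genes with no other gene start within 1 kb the median fold in DDX23-/- cells was 6.12. Why these moved, beyond there being fewer peaks or genes, was not tested. The order of the genotypes turned at equal list length, where the DDX23-/- share was below the 12.8% of wild-type cells, with 8 genes against 10. At a q of 1e-05 or less the median enrichment ratio of POLK-/- over wild-type cells turned from 1.11 to 0.915, within its interval of 0.508 to 1.53. The share of MRP genes was above that of all protein-coding genes in 33 of 33 settings run, the reported ones included. These settings overlap, and some of them repeat the reported value for the reasons given above. In wild-type cells the exact intervals for CpG-rich starts and for genes without a neighbour include the share of all such genes. Of 320 alternatives to 54 values of the other lists and name groups, 19 moved and 0 of them upward. At that q 9, 17 and 35 MRP genes had a peak (11.5%, 21.8% and 44.9%), against 4.25%, 8.32% and 22.2% of all protein-coding genes. Low fragment counts limit the wild-type values most, with 10 to 24 fragments at the peaks of the genes in every list.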
